A study of Mus musculus with 9 samples.

Results

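The genes described here encode the proteins of the cytosolic ribosome. They were taken by name from the deposited signal table of a mouse hippocampus array study: a transcript cluster, the set of probes that stands for 1 gene locus on the array, was a member if its gene symbol was Rpl or Rps with a number and at most a final a, x or l, or was Rplp0, Rplp1, Rplp2 or Rpsa. S6 kinases and named pseudogenes were left out. The rule found 86 of 22206 clusters, which cover 82 gene symbols, 50 of the large and 32 of the small subunit. The rule itself uses names and no signal.

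Ribosomal proteins fold around the ribosomal RNAs to form the small subunit, which reads the mRNA, and the large subunit, which joins amino acids. Cells make them in roughly equal amounts, and their mRNAs share a tract of pyrimidines at the 5′ end through which the mTOR kinase raises or lowers their translation. In neurons part of the ribosome pool lies in dendrites and near synapses, and many ribosomal protein mRNAs are found in neuronal processes.

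RNA came from the hippocampus of 9 male ICR mice, an outbred strain, 8 weeks old, with 1 array per mouse. Mice had inhaled 1% linalyl acetate (LA), an ester found in lavender oil, 10% LA, or the vehicle, 1% Tween 80, for 7 days, with 3 mice in each group. All were tested by tail suspension, which the protocol places after 30 min of inhalation. What carried LA in the treated groups was not given in the sources used here. Some labels are at odds. The description field of 5 samples tells of oral dosing and an injection, 3 of them naming LPS and 2 oleacein. The design text of the series names human cells and a human array. Groups were taken from the sample titles. All 12 neuronal and all 10 hippocampal subfield markers passed the filter on low signals, while none of the 10 markers of an endotoxin response did. All 12 choroid plexus, all 10 microglial and all 10 oligodendrocyte markers passed as well, so passing does not tell hippocampus from other brain tissue. The filter uses the mean of all 9 arrays, so it cannot settle the labels of single samples.

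Promoters are shown for some of the members that differed most between arrays or stood at the ends of the ordering described further on. They are printed with promoter elements sought in them. The outermost members of that ordering, Rps14 and an Rpl31 cluster, are not among those shown. Sequences are from RefSeq on GRCm38.p6, 50 bases before and 30 after the annotated start, on the gene's own strand. Capitals mark CTTTC or CTCTTT on the gene's strand, pyrimidine runs of the kind found at the start of ribosomal protein mRNAs, and CCGGAAG on either strand, a core that GABP and other ETS factors bind. Rpl18, Rpl15 and Rplp2 hold CTTTC in the stretch shown, Rpl37 and Rpl39 hold CCGGAAG, and Rpl10 and Rpl24 hold none of the 3. Rpl18, Rpl15 and Rpl10 had their lowest signals in 2 vehicle mice, and Rpl24, Rpl37, Rplp2 and Rpl39 had their highest signals in vehicle mice.
Rpl18, chr7:45718021-45718100, plus strand: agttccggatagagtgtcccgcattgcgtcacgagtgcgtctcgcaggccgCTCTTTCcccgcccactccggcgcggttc
Rpl15, chr14:18270957-18271036, minus strand: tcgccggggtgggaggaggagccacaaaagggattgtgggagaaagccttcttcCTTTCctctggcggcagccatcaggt
Rpl10, chrX:74270766-74270845, plus strand: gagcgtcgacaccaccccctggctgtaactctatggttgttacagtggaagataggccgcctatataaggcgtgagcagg
Rpl24, chr16:55966225-55966304, plus strand: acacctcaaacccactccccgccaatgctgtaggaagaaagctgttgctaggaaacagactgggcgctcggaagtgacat
Rpl37, chr15:5116563-5116642, plus strand: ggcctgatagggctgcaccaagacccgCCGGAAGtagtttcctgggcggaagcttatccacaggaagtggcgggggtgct
Rplp2, chr7:141447601-141447680, plus strand: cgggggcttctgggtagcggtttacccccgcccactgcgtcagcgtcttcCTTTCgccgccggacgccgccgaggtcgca
Rpl39, chrX:37085193-37085272, minus strand: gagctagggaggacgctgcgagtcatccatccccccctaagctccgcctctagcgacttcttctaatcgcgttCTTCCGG

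Of the 82 symbols, 61 had a promoter in the RefSeq table. CTTTC stood on the gene's strand between 30 bases before and 50 after the start in 29 of them (47.5%), against 9.03% of 17492 protein-coding promoters. The longer CTCTTT, which shares letters with CTTTC where the 2 run together, stood in the same window in 18 members (29.5%), against 2.55% of all. CCGGAAG was found on either strand of the 300 bases in 24 members (39.3%), against 11.9% of all, and TCGCGAGA, most of a palindrome seen in promoters of housekeeping genes, in 9 members (14.8%), against 1.51% of all. A match is a description of these letters and not a site. The median log2 difference from vehicle was -0.06 at 1% LA and -0.01 at 10% LA for the 29 clusters with CTTTC near the start, and -0.12 at 1% LA and -0.07 at 10% LA for the 31 without it.

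The signals are log2 values, so that a difference of 1 is a doubling, which the authors had normalised over all arrays. Of the 86 clusters, 83 had a mean above the 40th percentile of all clusters (5.98) and entered the tests, among 13323 clusters kept. The 3 below it were Rpl3l, the muscle form of Rpl3, at a mean of 4.32, Rpl39l, a form made mostly in testis, at 4.42, and 1 of 2 Rps26 clusters, at 5.37. The members kept ran between a mean of 6.92 for Rps4l and 17.9 for Rplp1, but signals of different probes do not rank transcripts by their amount. A further testis form, Rpl10l, averaged 7.97 and Rps27l, which p53 induces, averaged 8.24. In 18 clusters the table lists more than 1 symbol, in 11 of them a small nucleolar RNA or miRNA of an intron. The mouse genome holds many near-identical processed copies of these genes: the cluster IDs of 2 of 3 Rpl29 clusters, 1 of 2 Rpl31 clusters and 1 of 2 Rps26 clusters name another chromosome than the gene's own, and the same 2 Rpl29 clusters hold identical values. What these probes measure cannot be split between the gene and its copies.

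Across the 9 arrays the mean signal of the 83 members stayed within 13.3 and 13.5, and the spread between mice of a group was as large as the differences between groups. Per array it was 13.4, 13.4 and 13.3 at 1% LA and 13.5, 13.5 and 13.3 at 10% LA, against 13.4, 13.5 and 13.4 in vehicle. The groups overlapped, and the SD of this mean within a group lay between 0.084 and 0.12 (n = 3 mice each). In whole tissue, fewer cells of a type and less RNA per cell cannot be told apart.

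Inhalation of 1% LA was set against vehicle to ask whether hippocampal expression differs at the lower dose. No ribosomal protein gene passed the test. Of the members above vehicle, Rpl18, Rpl15 and Rps2 had the smallest unadjusted p, with differences of 0.42 to 0.72 on the log2 scale, and Rps14 lay below vehicle, at -0.78. The members above vehicle numbered 34 and those below 49 (41.0% above, against 49.1% of all clusters), and the shift was small beside the spread between mice. By limma's moderated test 0 of 83 members had an adjusted p under 0.05, where the share over all 13323 clusters was 0.0%, and the smallest adjusted p of a member was 0.371. At an unadjusted p under 0.05 there were 4 members (4.82%), against 11.9% of all clusters.

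Rpl18, a protein of the large subunit, had log2 signals of 13.20, 13.07 and 13.03 at 1% LA, against 13.11, 12.11 and 11.93 in vehicle. The 1% LA mice were alike and vehicle mice 2 and 3 lay about 1 unit below them, while vehicle 1 lay among them. The log2 difference was 0.72 (SE 0.29, limma, unadjusted p = 0.0305, adjusted p = 0.385). Rpl15, also of the large subunit, had 15.56, 15.57 and 15.73 at 1% LA, against 15.57, 14.95 and 14.77 in vehicle. Again only vehicle 1 reached the treated mice, and the difference was 0.52 (SE 0.23, limma, unadjusted p = 0.0444, adjusted p = 0.406). Rps2, which lines the path of the mRNA into the small subunit, had 15.29 in each 1% LA mouse, against 15.13, 14.69 and 14.80 in vehicle. These groups did not overlap, and the difference was 0.42 (SE 0.17, limma, unadjusted p = 0.0336, adjusted p = 0.392).

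Rps14, a small subunit protein needed to cut the RNA of that subunit to its final length, was lower. It had 13.11, 13.08 and 12.68 at 1% LA, against 13.05, 14.20 and 13.97 in vehicle. Vehicle 1 lay within the treated range and vehicles 2 and 3 about 1 unit above it. The difference was -0.78 (SE 0.30, limma, unadjusted p = 0.0224, adjusted p = 0.371). Further large differences missed an unadjusted p of 0.05: the Rpl31 cluster whose ID names chromosome 7 at 0.77, Rpl10 at 0.63, Rpl29 at 0.40, Rpl24 at -0.60, Rpl37 at -0.59, Rplp2 at -0.54, Rpl32 at -0.42, Rpl37a at -0.35 and Rpl41 at -0.32. Besides Rps2, the groups were apart for Rpl4, which was above vehicle at 0.23, and for Rpl38 and Rpl37, which were below it. These were among 5 members without overlap (6.02%), against 14.4% of all clusters.

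At 10% LA the same question was asked of the higher dose. The picture was again one of single members on both sides of 0, with 41 members above vehicle and 42 below it (49.4% above, against 47.7% of all clusters). Rpl18, Rpl10, Rpl15 and the Rpl31 cluster on chromosome 7 by its ID were above vehicle, and Rps14, Rpl24, Rpl37 and Rpl32 below it, by 0.59 to 0.89 on the log2 scale and at an unadjusted p under 0.05. None passed after adjustment. By limma 0 of 83 members had an adjusted p under 0.05, against 0.0% of all clusters, with a smallest adjusted p of 0.312. The 8 members named make 9.64%, against 13.9% of all clusters. Both doses were set against the same 3 vehicle mice.

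Rpl10, which completes the large subunit and lets it join the small one, had 15.53, 14.87 and 15.31 at 10% LA, against 15.29, 14.10 and 13.87 in vehicle. Its highest vehicle mouse lay within the treated range and the other two below it, and the difference was 0.82 (SE 0.32, limma, unadjusted p = 0.0275, adjusted p = 0.325). The Rpl31 cluster had 8.82, 8.75 and 8.95 at 10% LA, against 9.03, 7.38 and 7.43 in vehicle. Here vehicle 1 was above every treated mouse, and the difference was 0.89 (SE 0.36, limma, unadjusted p = 0.0279, adjusted p = 0.325). The Rpl31 cluster on the gene's own chromosome had 16.30, 16.32 and 16.23 at 10% LA, against 16.12, 16.31 and 16.23 in vehicle. The pair of clusters thus disagreed, with 0.89 for the one and 0.06 for the other.

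Rpl18 had 13.65, 12.93 and 13.22 at 10% LA, a difference of 0.88 from the vehicle mice given above (SE 0.29, limma, unadjusted p = 0.0107, adjusted p = 0.312). Rpl15 had 15.93, 15.34 and 15.79 at 10% LA, a difference of 0.59 (SE 0.23, limma, unadjusted p = 0.0265, adjusted p = 0.322). Both overlapped vehicle through vehicle 1 alone.

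Rpl24, which reaches across to the small subunit as a bridge, had 12.35, 12.89 and 12.33 at 10% LA, against 12.53, 13.59 and 13.79 in vehicle. The difference was -0.78 (SE 0.32, limma, unadjusted p = 0.0337, adjusted p = 0.334), and vehicle 1 lay inside the treated range. Rps14 had 12.62, 13.31 and 12.67 at 10% LA, a difference of -0.87 (SE 0.30, limma, unadjusted p = 0.0129, adjusted p = 0.312). Rpl37, a small zinc-binding protein of the large subunit, had 14.36, 14.79 and 13.95 at 10% LA, against 14.77, 15.58 and 14.97 in vehicle. Its groups met at 1 mouse each, and the difference was -0.74 (SE 0.28, limma, unadjusted p = 0.0213, adjusted p = 0.319). Rpl32 had 13.17, 13.29 and 12.73 at 10% LA, against 13.24, 13.95 and 13.78 in vehicle, a difference of -0.59 (SE 0.23, limma, unadjusted p = 0.0245, adjusted p = 0.319).

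**Figure D1:**
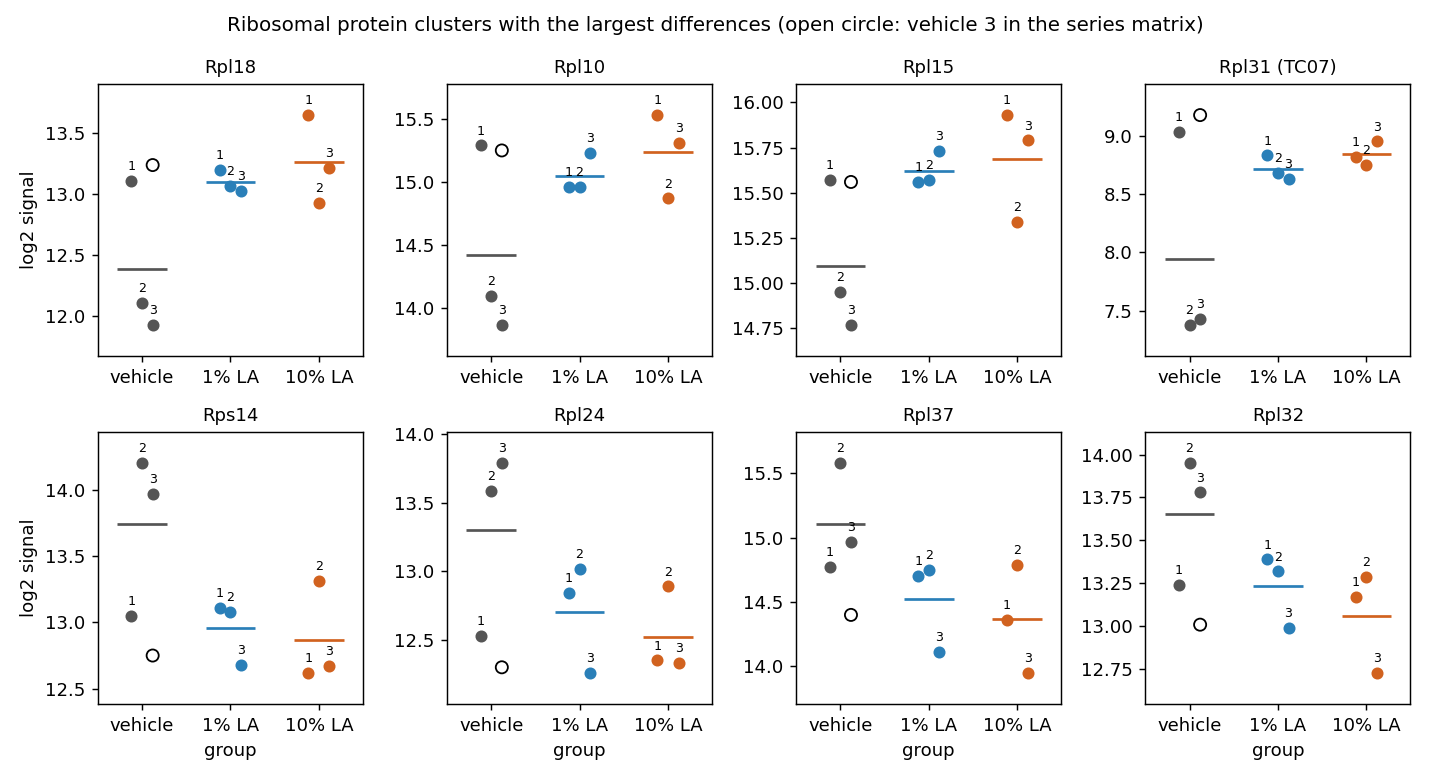
Log2 signals (vertical axis, 1 panel per cluster) of 8 ribosomal protein clusters in each mouse of the vehicle, 1% LA and 10% LA groups; filled points are mice with their replicate numbers, bars are group means, and the open circle is vehicle 3 as the series matrix gives it. In the upper row vehicles 2 and 3 lie below the treated mice and vehicle 1 among them or above; in the lower row vehicles 2 and 3 lie above the treated mice.

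Among the remaining members with large differences at 10% LA, Rps9 was at -0.56, Rpl27 at -0.49, Rps4l at -0.43, Rplp2 at -0.42, Rpl29 at 0.51 and Rpl5 at 0.42, all with an unadjusted p above 0.05. The groups did not overlap in 9 members (10.8%), against 14.6% of all clusters: Rpl12, Rpl5, Rpl28, Rpl4, Rplp1, Rpl26 and Rps23 were above vehicle and Rpl30 and Rps10 below. Rpl12, at the base of the stalk that takes up elongation factors, had 16.35, 16.19 and 16.15 at 10% LA, against 15.92, 16.01 and 15.95 in vehicle. Its difference was 0.27 (SE 0.15, limma, unadjusted p = 0.106, adjusted p = 0.441). Rpl5, which with Rpl11 and the small ribosomal RNA it carries can bind Mdm2, had 14.79, 14.58 and 14.50 at 10% LA, against 14.38, 14.40 and 13.82 in vehicle. Its partner Rpl11 was at -0.18 at both doses (SE 0.21).

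The 2 doses were compared to ask whether they differ from each other. No member passed the test, by limma, and 0 of 83 had an unadjusted p under 0.05, where 2.03% of all clusters did; 0.0% of all clusters passed after adjustment. At 10% LA 53 members were above and 29 below 1% LA (63.9% above, against 46.9% of all clusters), with a median difference of 0.05, against -0.01 over all clusters. This median lay between -0.003 and 0.09 when each array was left out in turn, the lowest without 1% LA replicate 3, where 41 members were above and 42 below. Single differences ran between -0.32 for Rps9 and 0.50 for Rpl10l. Rps25, a small subunit protein used by some viral RNAs to start translation, had 12.84, 13.06 and 12.87 at 10% LA, against 12.73, 12.37 and 12.63 at 1% LA. These did not overlap, and the difference was 0.35 (SE 0.18, limma, unadjusted p = 0.0809, adjusted p = 1.0). Rpl12, Rpl28 and Rpl8 also lay above 1% LA without overlap and Rps19 below it, which makes 5 members (6.02%), against 6.24% of all clusters.

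By subunit, the 51 large subunit clusters had a median difference of -0.003 at 1% LA and 0.07 at 10% LA, and the 32 small subunit clusters -0.11 and -0.06. Over all clusters the medians were -0.003 at 1% LA and -0.02 at 10% LA. Of the small subunit clusters 9 were above vehicle at 1% LA and 12 at 10% LA, and of the large subunit clusters 25 and 29. The difference between the subunits was not tested. Taken over all 83 members the median was -0.08 at 1% LA and -0.01 at 10% LA, and that at 10% LA changed sign with the scaling, at 0.003 with each array centred on its median and -0.03 after quantile normalisation.

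The stalk proteins did not move together: Rplp0 was at 0.28 and 0.10, Rplp1 at 0.25 and 0.25 and Rplp2 at -0.54 and -0.42, for 1% LA and 10% LA in that order, and none had an unadjusted p under 0.05. Rps6, the substrate of the kinase that mTOR activates, was at -0.12 (SE 0.18) at 1% LA and -0.09 (SE 0.18) at 10% LA. Rps27a, made as a fusion with ubiquitin, was at 0.07 and -0.02, Rpsa, also known as a receptor for laminin, at -0.11 and 0.03, and Rpl38, which in mouse embryos is needed to translate some Hox mRNAs, at -0.31 and -0.11. Rpl13a was at 0.25 and 0.37, Rps3 at 0.11 and 0.25, Rpl26 at 0.08 and 0.14, Rpl10a at 0.21 and 0.28, Rpl22 at -0.06 and 0.03 and Rpl7a at -0.12 and -0.02. Among paralogs, Rpl3 was at 0.14 and 0.17, Rpl10l at -0.26 and 0.25, Rpl39 at -0.27 and -0.21, Rps27 at -0.06 and -0.26, Rps27l at 0.05 and -0.07, Rps4x at 0.04 and -0.15 and Rps4l at -0.22 and -0.43. None of these had an unadjusted p under 0.05.

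Of the vehicle mice 1 stood apart from the other two in many members, though the median SD in vehicle was 0.225 for the members, against 0.261 for all clusters kept. In the signal table vehicle 1 differed from both others by more than 0.5 log2 units in the same direction in 21 of 83 members (25.3%, against 17.8% of all clusters), vehicle 2 in 1 and vehicle 3 in 2. Of the 21, vehicle 1 was higher in 8 (among them Rpl10, Rpl15, Rpl18, Rpl34, both identical Rpl29 clusters and the Rpl31 cluster) and lower in 13 (Rps14, Rps12, Rps19, Rps20, Rps27a, Rps28, Rpsa, Rpl24, Rpl32, Rpl35, Rpl37a, Rpl39 and Rplp2). Rps20 shows the lower side, with 11.12 in vehicle 1, 12.45 in vehicle 2 and 12.21 in vehicle 3. The SD within a group passed 0.5 in 2 members at 1% LA (2.41%, against 6.06% of all clusters), in 1 at 10% LA (1.2%, against 7.36%) and in 13 in vehicle (15.7%, against 13.8%). The share in vehicle was thus near that of all clusters. The largest residual SDs of the fit were those of the Rpl31 cluster (0.55), Rps20 (0.49), Rpl10 (0.49), Rpl24 (0.49) and Rps9 (0.48).

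**Figure D2:**
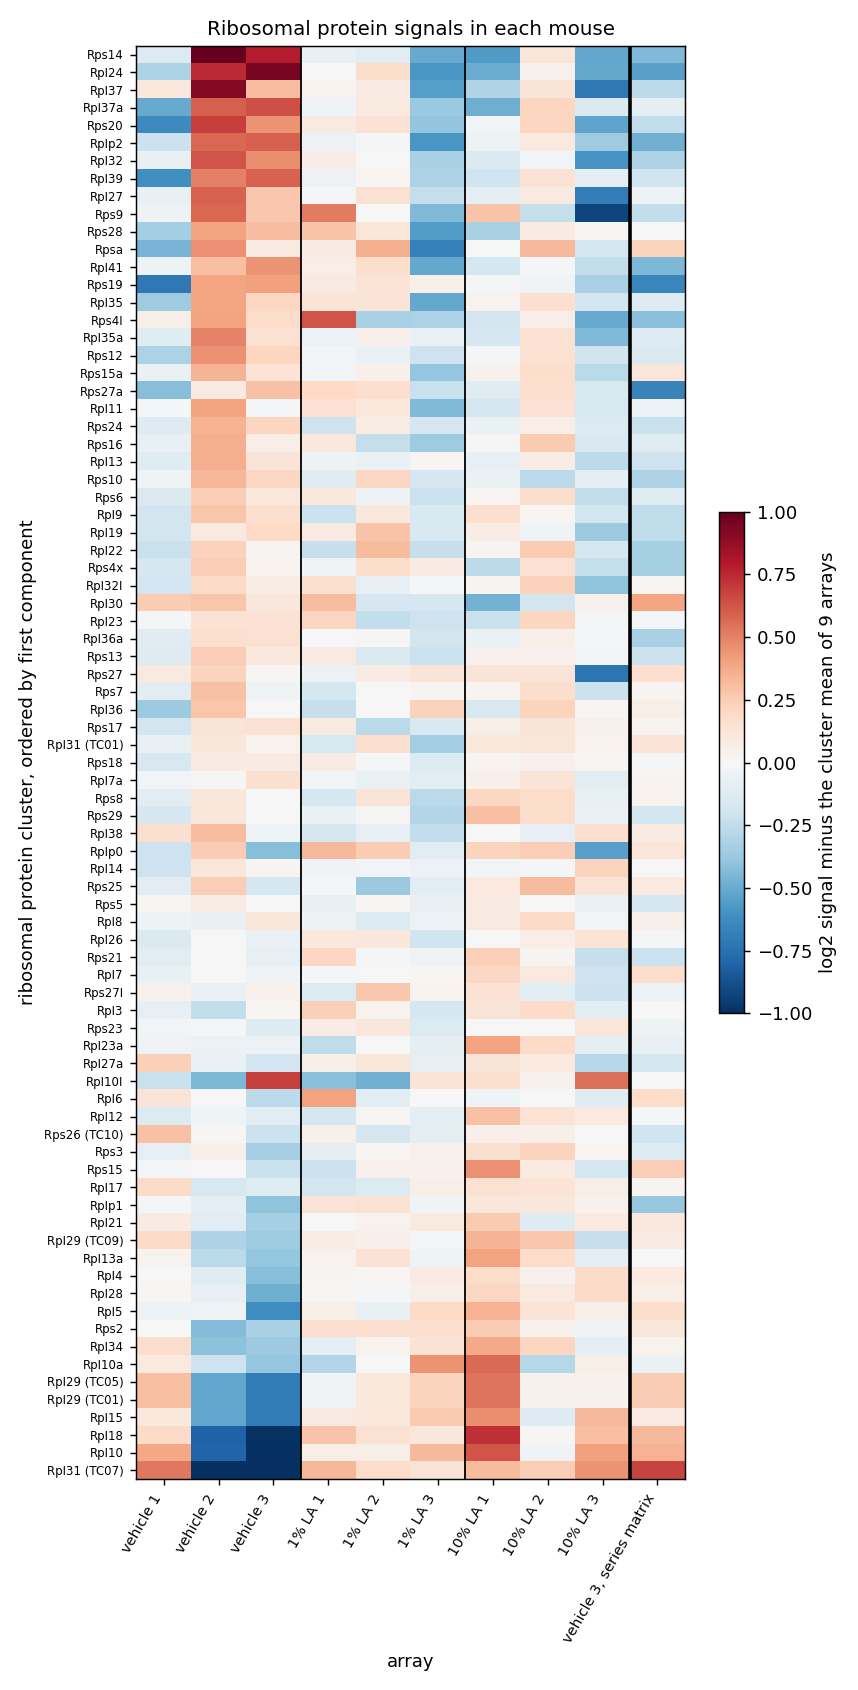
Log2 signal minus the mean of the 9 arrays (colour, with values past 1 in either direction at the end colours) for 81 of the 83 ribosomal protein clusters kept (rows, ordered by the first component) in each array (columns), with vehicle 3 of the series matrix in the last column. Rows at the top are red in vehicles 2 and 3 and rows at the bottom blue, while the last column is unlike vehicle 3 of the signal table.

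The first principal component of the members over the 9 arrays took 63.2% of their variance, against 39.2% for all clusters kept. Its array weights, whose sign is arbitrary, were 0.25, -0.59 and -0.54 in vehicles 1, 2 and 3, and between -0.06 and 0.32 in the treated mice. Rps14, Rpl24, Rpl37, Rpl37a, Rps20, Rplp2, Rpl32 and Rpl39 stood at one end and the Rpl31 cluster, Rpl10, Rpl18, Rpl15 and Rpl29 at the other. The members between these ends had loadings that ran through 0. Over the 3321 pairs of 82 clusters, counting identical values once, the median correlation over the 9 arrays was 0.18 with 61.3% of pairs above 0 and 12.5% below -0.5, as a description over arrays of the same mice. In the series matrix, described further on, the first component took 57.9%, with weights of 0.19, -0.77 and 0.23 in vehicles 1, 2 and 3. Which vehicle mice stood apart on it thus depended on the column used for vehicle 3.

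Cell type markers also differed between these mice. The summed level of 12 choroid plexus markers, all kept, as a mean of log2 values around the average array, was 1.04 to 2.21 at 1% LA and -1.35 to 1.73 at 10% LA, against -2.78, 0.31 and -2.60 in vehicle. In the signal table it was thus high in vehicle 2 alone of the vehicle mice, but for vehicle 3 the series matrix, a second deposited table of the same arrays, gives 1.77. The level of 10 microglial markers was -0.08 to 0.18 at 1% LA and -0.05 to 0.75 at 10% LA, against -0.03, -0.31 and -0.68 in vehicle, and that of 8 oligodendrocyte precursor markers 0.21 to 0.29 at 1% LA and -0.03 to 0.41 at 10% LA, against -0.13, -0.44 and -0.70 in vehicle. For these lists vehicle 1 was the vehicle mouse with the highest level in the signal table, but in the series matrix vehicle 3 stood at 0.02 for microglia and 0.008 for oligodendrocyte precursors, above vehicle 1 of the signal table. Other lists differed: in the signal table vehicles 1, 2 and 3 had -0.10, 0.09 and -0.36 for astrocytes and -0.09, 0.23 and -0.92 for oligodendrocytes. In the signal table vehicle 2 was also highest of the vehicle mice for meninges and blood, and vehicle 1 for neurons, hippocampal subfields and endothelium. In the series matrix vehicle 3 stood at 0.64 for oligodendrocytes, 0.68 for meninges, 0.45 for endothelium and 0.18 for hippocampal subfields. These values lie above vehicles 1 and 2 of the signal table. For astrocytes (0.045), blood (0.055) and neurons (-0.06) vehicle 3 of the series matrix stayed below the higher of those mice. The part of these cell type markers in the members' values was not tested.

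Since vehicle 1 stood apart, the comparisons were repeated without single vehicle mice. Without vehicle 1, 3 members passed an adjusted p of 0.05 by limma at 1% LA, against 1.65% of all clusters: the Rpl31 cluster at 1.31 (adjusted p = 0.0194), Rpl18 at 1.08 (adjusted p = 0.0449) and Rpl10 at 1.06 (adjusted p = 0.0472). At 10% LA 5 passed, against 4.01% of all clusters: the same Rpl31 cluster at 1.44 (adjusted p = 0.0075), Rpl18 at 1.25 and Rpl10 at 1.25 (each adjusted p = 0.0253), Rps14 at -1.22 (adjusted p = 0.0334) and Rpl24 at -1.17 (adjusted p = 0.0413). At an unadjusted p under 0.05 there were then 17 members (20.5%, against 23.3% of all clusters) at 1% LA and 28 (33.7%, against 24.8%) at 10% LA. Without vehicle 2 there were 0 at 1% LA and 2 at 10% LA, against 7.77% and 8.63% of all clusters, and without vehicle 3 there were 0 and 3, against 6.03% and 6.86%. Whether any member passed depended on which vehicle mice were used. Vehicle 1 was singled out by the members' own values, and each member that passed was among the 21 in which that mouse stood apart. Leaving it out thus favoured these members in advance, and their calls are not independent support for a difference from vehicle. With the series matrix and without vehicle 1, 0 members passed at either dose.

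**Figure D3:**
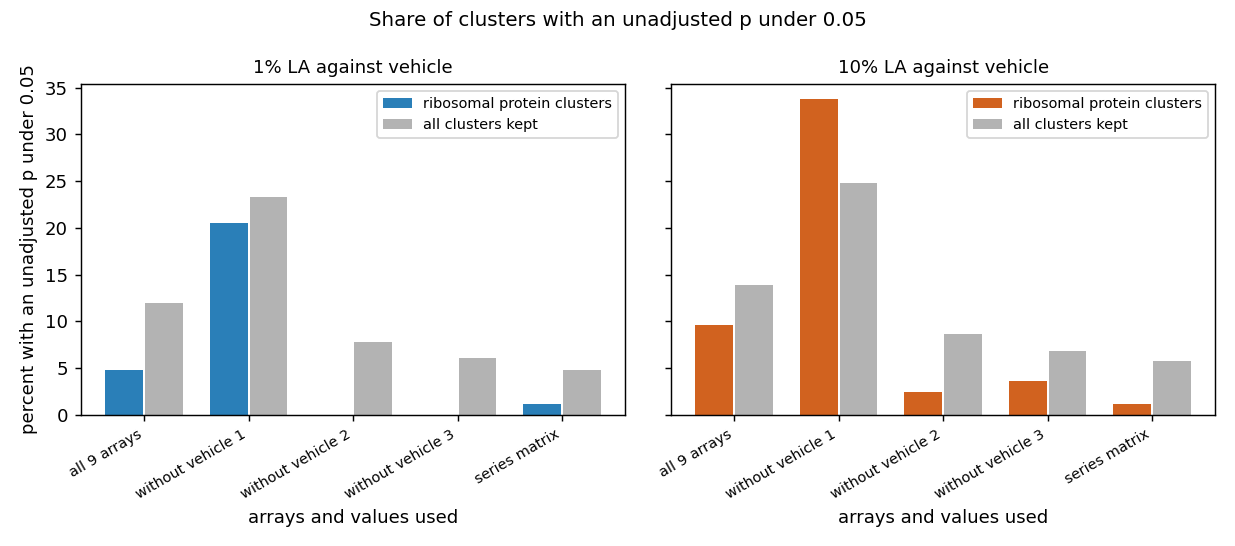
Percent of clusters with an unadjusted p under 0.05 (vertical axis) among the 83 ribosomal protein clusters (coloured bars) and all clusters kept (grey bars), at 1% LA and 10% LA against vehicle, with all 9 arrays, without each vehicle mouse, and with the series matrix. The member bars reach 20.5% and 33.7% only without vehicle 1.

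The series matrix gave another picture of the vehicle group. Its columns followed the signal table for 8 arrays, with members at most 0.263 log2 units apart. The column of vehicle 3 did not: 26 members differed by more than 0.5 and the largest gap was 1.75, in the Rpl31 cluster (7.43 in the signal table and 9.18 in the series matrix). Rpl24 stood at 13.79 in the signal table and 12.30 in the series matrix, Rps14 at 13.97 and 12.75, and Rpl18 at 11.93 and 13.24. In the series matrix vehicle 2 in place of vehicle 1 was the mouse apart, in 25 members (30.1%, against 17.2% of all clusters), with vehicle 1 apart in 2 and vehicle 3 in 1. Which column holds that mouse was not given in the sources used here.

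With the series matrix 0 members passed by limma in any of the 3 comparisons, and 1 had an unadjusted p under 0.05 at each dose against vehicle (1.2%, against 4.81% and 5.74% of all clusters): Rpl38 at -0.39 at 1% LA, and Rpl30 at -0.52 at 10% LA. Between the doses 1 did, Rps25 at 0.39. The Rpl31 cluster then differed by 0.19 and 0.26, Rpl10 by 0.16 and 0.33, Rpl18 by 0.28 and 0.44, Rps14 by -0.34 and -0.42 and Rpl24 by -0.08 and -0.31, all in the same direction as in the signal table and smaller. The median over the members was -0.02 at 1% LA and 0.05 at 10% LA, with 31 and 50 of 83 above vehicle, against 50.1% and 47.4% of all clusters.

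**Figure D4:**
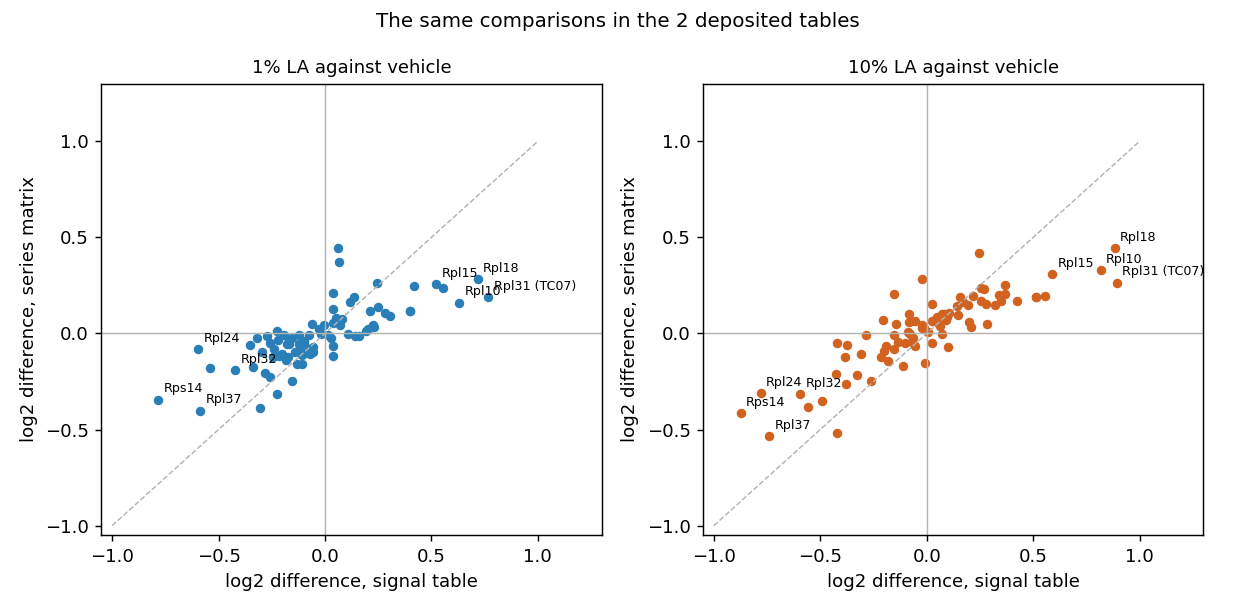
Log2 difference from vehicle of each of the 83 ribosomal protein clusters in the signal table (horizontal axis) and in the series matrix (vertical axis), at 1% LA and 10% LA; the dashed line marks equal values. Members far from 0 in the signal table, such as Rpl18 and Rps14, lie nearer to 0 in the series matrix.

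In the authors' deposited table, 5 of 86 members at 1% LA and 9 of 86 at 10% LA had a p-value under 0.05. Of these, 2 and 5 also had a fold above 2, and the submitters' criteria were such a p-value with such a fold. A p-value under 0.05 was held by 9.5% of all clusters at 1% LA and 10.7% at 10% LA in the authors' deposited table. The share of all clusters that met both criteria there is not given here, so the 2 and 5 cannot be set against it. The smallest FDR p-value of a member in the authors' deposited table was 0.469 at 1% LA and 0.411 at 10% LA. Its signed folds ran between -1.9 and 2.44 at 1% LA and between -2.59 and 2.68 at 10% LA. By the same criteria 0 members were found at either dose from the plain group means and limma, against 1.4% of all clusters at 1% LA and 1.09% at 10% LA. There Rpl18 at 1% LA had a fold of 1.64, against 2.07 in the authors' deposited table, whose group averages are not the plain means of 3 arrays.

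Genes around the ribosome were looked at through lists. Of 9 clusters of other cytosolic ribosome proteins and near relatives, 7 were below vehicle at 1% LA and at 10% LA, with medians of -0.31 and -0.14. Over all clusters 49.1% and 47.7% were above vehicle. The paralogs Rpl36al (-0.56 and -0.60) and Rpl7l1 (-0.43 and -0.47) had an unadjusted p under 0.05 at both doses, and Rpl22l1 (-0.42) at 1% LA. They make 3 of 9 clusters at 1% LA and 2 of 9 at 10% LA, against 11.9% and 13.9% of all clusters. In the series matrix Rpl36al was at -0.45 and -0.43, Rpl7l1 at -0.47 and -0.47, and Rpl22l1 at -0.31 at 1% LA. Of 39 translation factors 22 were above vehicle at 1% LA and 21 at 10% LA, with medians of 0.08 and 0.04. Pabpc1, which binds the poly(A) tail and whose own mRNA has a pyrimidine tract, was at 1.18 and 1.36, and Eif3m, of the initiation factor that sits on the small subunit, at 0.61 and 0.63. Eif5 was at 0.46 and 0.58, and Eef1a2, the elongation factor of mature neurons, at -0.61 at 1% LA. In the series matrix Pabpc1, whose SD in vehicle was 1.04, was at 0.49 and 0.67, Eif3m at 0.40 and 0.45, Eif5 at 0.28 and 0.42, and Eef1a2 at -0.25 at 1% LA. With all 9 arrays 0 genes of these lists passed by limma. At an unadjusted p under 0.05 there were 4 of 39 translation factors at 1% LA and 6 of 39 at 10% LA, beside the 11.9% and 13.9% of all clusters. Without vehicle 1, 1 translation factor passed at 1% LA and 2 at 10% LA. Among mitochondrial ribosomal proteins 1 and 2 passed, among oxidative phosphorylation subunits 2 and 6, and in the mTOR list 0 and 1. The other lists around the ribosome had 0. Over all clusters 1.65% passed at 1% LA and 4.01% at 10% LA. As for the members, vehicle 1 was left out after its values were seen, so these calls are not independent support.

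Of 62 ribosome biogenesis genes kept, 40 were below vehicle at 1% LA and 42 at 10% LA, with medians of -0.09 and -0.09. Over all clusters 49.1% were above vehicle at 1% LA and 47.7% at 10% LA. Of the 62, 4 at 1% LA and 5 at 10% LA had an unadjusted p under 0.05. The share of all clusters was 11.9% at 1% LA and 13.9% at 10% LA. The biogenesis genes under 0.05 included Nob1, which trims the RNA of the small subunit, at 0.40 and 0.42. In the series matrix Nob1 was at 0.23 and 0.26. In the mTOR list of 25 genes kept, Ddit4, a stress-induced inhibitor of mTOR, was at -0.70 and -0.63, and Eif4ebp2, the brain's main inhibitor of cap-dependent initiation, at -0.55 at 10% LA. The list medians were -0.06 and -0.11. In the series matrix Ddit4 was at -0.87 and -0.82 and Eif4ebp2 at -0.61 at 10% LA, further from 0 than in the signal table. Of 8 genes of the p53 response kept, Cdkn1a, a cell cycle inhibitor, was at -0.86 at 1% LA and at -0.36 in the series matrix, and the medians were 0.15 and 0.05. The 74 mitochondrial ribosomal proteins kept had medians of -0.08 and -0.11 and the 74 subunits of oxidative phosphorylation -0.14 and -0.14. With the series matrix the list medians lay nearer to 0, as for oxidative phosphorylation at -0.06 and -0.09.

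**Figure D5:**
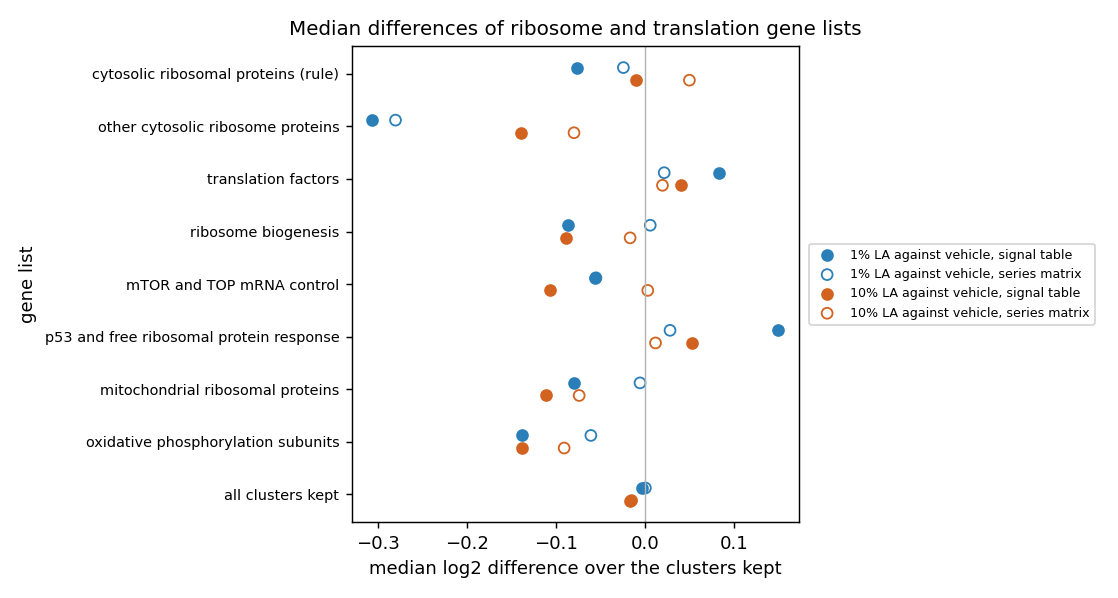
Median log2 difference from vehicle (horizontal axis) of the ribosomal proteins, of each ribosome or translation list and of all clusters kept (rows), at 1% LA and 10% LA, in the signal table (filled points) and the series matrix (open circles). The ribosomal proteins sit at -0.08 and -0.01 in the signal table, near the medians of all clusters.

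The genes whose pattern over the 9 arrays, centred within groups, was most like the mean of the members were Rap2b (r = 0.989), Ndufs4 (r = 0.987), Slc39a7 (r = 0.985), Znrf2 (r = 0.975) and Bcl2l2 (r = 0.973), the 5 highest of all clusters kept with 1 named gene. These r describe 9 arrays from 9 mice and carry no test.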

How the data were processed

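Hippocampal RNA of 9 mice was measured on Clariom S arrays. Per the submitters' processing notes and the design text, the authors normalized the deposited log2 signals with signal space transformation RMA in Transcriptome Analysis Console 4.0.2 and used limma. The authors' deposited comparison tables give signed linear folds, a score with values below 1 written as minus the inverse, and p-values and FDR p-values. A genome build was not given in the sources used here. Values were used as deposited. limma 3.58.1 (R 4.3.3) was fitted to all 9 arrays with a mean per group. It used 13323 of 22206 clusters, those with a mean above the 40th percentile (5.98), and p-values were adjusted over these by Benjamini-Hochberg. The fit was also run on simulated data with errors drawn independently for each cluster and array. That setting holds no mouse that stands apart in many genes, so it does not test the fit for such a case. SE is limma's. The 3 arrays per group limit the precision (median SE 0.193 for members), and p-values measure the spread between these mice. Members and lists were chosen with earlier results of these data known. Named members are, in each comparison, up to 8 per direction with the largest difference, those with the highest and lowest means or the largest residual SD, and paralogs and members with special roles; list genes are up to 4 per list with the smallest p. Deviations of same-numbered mice correlated at r between -0.17 and 0.17, and the main fit used no pairing. With 3 mice per group such r cannot show that the replicate numbers carry none. Promoters for 61 of 82 symbols came from RefSeq; a motif was sought in the 300 bases as stated. A few genes are not reported here by name, though they count in the totals.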

Additional observations from a re-analysis of the deposited data

Results flagged for a closer look

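Rps19, the gene most often mutated in the inherited anaemia named after Diamond and Blackfan, was singled out because every 10% LA mouse lay below the vehicle mean and every 1% LA mouse above it. It had 11.23, 11.21 and 10.92 at 10% LA, against 11.33, 11.38 and 11.29 at 1% LA. The vehicle mean was 11.27 ± 0.64 (SD, n = 3), so the lowest 1% LA mouse lay only just above it. The difference between the doses was -0.21 (SE 0.27, limma, unadjusted p = 0.446, adjusted p = 1.0). Vehicle 1 had 10.53 and the other vehicle mice 11.64 and 11.65, and in the series matrix, where vehicle 3 stood at 10.59, both doses were above vehicle, at 0.20 for 10% LA and 0.44 for 1% LA.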

How the results depend on the processing

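No member passed an adjusted p of 0.05 by limma with all 9 arrays, nor with the series matrix, without the filter, with a filter at the 60th percentile, with array medians centred, with quantile normalization, with trend and robust variance, with array weights or over clusters with 1 symbol. Leaving out 1 array, the members called ran between 0 and 3 at 1% LA and between 0 and 5 at 10% LA, the highest in each case without vehicle 1, and stayed at 0 between the doses. The member median then ran between -0.14 and 0.0 at 1% LA, -0.06 and 0.05 at 10% LA and -0.003 and 0.09 between the doses. Members at an unadjusted p under 0.05, 4 at 1% LA and 8 at 10% LA, became 1 and 1 with the series matrix, 16 and 21 with array weights (19.3% and 25.3%, against 21.7% and 24.0% of all clusters) and 7 and 13 with trend and robust variance (8.43% and 15.7%, against 12.2% and 14.1%), and ran between 0 and 17 and between 2 and 28 without single arrays. After quantile normalization the 4 members at 1% LA, 3 above and 1 below vehicle, became 5 (6.02%, against 11.95% of all clusters), 1 above and 4 below. Of all 83 members 29 were then above vehicle, against 34 before it. The replicate block left 0 members called. At an unadjusted p under 0.05 it gave 7 at 1% LA (8.43%, against 12.3% of all clusters) and 10 at 10% LA (12.05%, against 13.79%). Between the doses it gave 1 (1.2%, against 1.97%). A pair of alternatives chosen after seeing the data, the series matrix without vehicle 3 or without vehicle 1, called 0. Of the 16 named differences in each comparison, none changed sign against vehicle; between the doses, leaving out 1 array, Rps4l ran between -0.37 (without 1% LA replicate 2) and 0.11 (without 1% LA replicate 1), Rps27 between -0.345 and 0.08 and Rpl27 between -0.35 and 0.037, the highest of both without 10% LA replicate 3. The causes were not tested.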
